A study of Mus musculus with 12 samples.

Results

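Cytosolic ribosomal proteins are the protein parts of the ribosome that translates nuclear messages in the cytoplasm. Genes were taken as members where the symbol began with Rpl or Rps and a digit or with Rplp and a digit, or was Rpsa, leaving out the S6 kinases (Rps6k) and Rps19bp. The rule found 57 probes of 55 genes among 9212 genes: 32 of the large subunit, 19 of the small subunit, the 3 stalk genes Rplp0, Rplp1 and Rplp2, and 1 paralog, Rpl7l1. In 1 further probe Rpl27a shared the annotation with Trim66 and Denn2b, and that probe was not counted.

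A ribosome holds most of these proteins in about equal number, and cells coordinate their supply. Their messages are abundant and typically begin with a cytosine followed by a run of pyrimidines, the terminal oligopyrimidine (TOP) tract, through which the kinase mTOR adjusts their translation together. Fast-growing cells such as embryonic stem (ES) cells make many ribosomes, and human mutations in several of these genes cause Diamond-Blackfan anaemia, a failure of red cell formation.

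The series followed mouse R1 ES cells during random differentiation. Embryoid bodies (EB), cell aggregates that form many tissues at once, were dissociated and plated in DMEM with fetal serum for 4, 8, 15 or 21 days. The counterpart, in the other channel of each of the 12 arrays, was undifferentiated R1 ES RNA from gelatin-coated dishes with leukemia inhibitory factor, and each day had 3 arrays. No genotype or drug was varied. Whether the arrays of a day stem from different cultures is not stated, so the errors and p-values measure the spread between arrays, which may be technical. Labelled RNA came from mixed cultures, so fewer cells of a type and less RNA per cell cannot be told apart.

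Values are the deposited normalized log ratios, read as log2, the usual base for such ratios but one that no label names. Values above 0 are taken to mean more RNA in EB than in ES cells. That orientation is probable only: the labelling protocols put Cy3 in ES RNA and Cy5 in EB RNA, whereas the dye fields and the order of names in the titles point the other way, and marker genes of these same arrays were the basis for the choice. Were it the reverse, "higher" and "lower" would swap throughout, with the same p-values. A gene is called where its adjusted p in limma, a linear model fitted to all features at once, is under 0.05. At day 21 all 8 measured ES markers were lower (Zfp42 at -2.54 ± 0.02, SD, n = 3), all 7 endoderm markers higher (Afp at 3.60 ± 0.44) and all 8 mesenchyme markers higher (Postn at 2.80 ± 0.21). At day 4 none of these 23 markers passed the test.

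Arrays differed in ways the labels do not explain. A set of 96 regularly spaced features without a gene symbol had medians of -1.54 to -1.04 on 5 arrays (day 4 array 3, day 8 arrays 2 and 3, day 15 array 3 and day 21 array 3) and of -0.31 to 0.06 on the other 7. These are called array set 2 and array set 1 below; what the features are is not known. Across all features, the arrays of a day correlated by 0.006 to 0.202 at day 4, 0.351 to 0.619 at day 8, 0.390 to 0.821 at day 15 and 0.559 to 0.773 at day 21. Every array's median over the table lay within 0.02 of 0.

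Some members have a TOP-like stretch near their annotated start in the reference. RefSeq start regions of GRCm38.p6 were found for 42 member genes, with 51 promoters in all. CTTTCC or CTTTTC, short stretches typical of a TOP tract, lay within 10 bases of the annotated start, on the gene's own strand, in 6 of the 51 (11.76%) and in 481 of all 32851 promoters (1.46%). The 6 belong to Rpl12, Rpl27a, Rpl28, Rpl34, Rpl35 and Rpl35a. Counted from the annotated start, the match begins at position 3 in Rpl12, Rpl28 and Rpl35a and at 4 in Rpl27a. It begins at -5 in Rpl35 and at -10 in Rpl34, where it lies wholly before the start. None begins at the annotated first base, where a TOP tract would. Only the gene's own strand was searched, since the tract is read in the message. The regions below run from 25 bases before the start to 15 bases from it on, with the matched letters in capitals. Rpl35a, Rpl12, Rpl27a and Rpl28 are shown because they hold a match and differ in their day 15 values, and Rpl7l1 because it was called lower at both late days and its window has no match.
Rpl35a (chr16:33056457-33056496, + strand): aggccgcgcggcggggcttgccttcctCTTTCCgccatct
Rpl12 (chr2:32961687-32961726, + strand): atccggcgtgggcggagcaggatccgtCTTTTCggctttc
Rpl27a (chr7:109519170-109519209, + strand): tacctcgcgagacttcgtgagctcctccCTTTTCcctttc
Rpl28 (chr7:4792940-4792979, + strand): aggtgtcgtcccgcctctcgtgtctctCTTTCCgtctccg
Rpl7l1 (chr17:46782642-46782681, - strand): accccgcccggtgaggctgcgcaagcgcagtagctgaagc
A match describes these letters only, and no match says nothing of how a message is translated.

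Ribosomal protein genes stayed near the ES level through day 8 and their median lay modestly below it at day 21. At day 15 it was -0.288 on array 3 and -0.001 over the other 2 arrays. The median over the 55 gene means was -0.002 at day 4, -0.003 at day 8, -0.105 at day 15 and -0.145 at day 21, where the median over all 10689 features was -0.001, -0.001, 0.007 and 0.003. Gene means below 0 numbered 28, 28, 44 and 50 of 55 over the 4 days (50.9%, 50.9%, 80.0% and 90.9%). Of all features 50.4%, 50.2%, 48.5% and 49.4% were below 0. Members below 0 on all 3 arrays of a day numbered 4, 9, 19 and 33, or 7.3%, 16.4%, 34.5% and 60.0%. The same shares of all features were 15.4%, 21.9%, 23.3% and 26.6%, so at days 4 and 8 the members' share was the smaller. Array by array the member median was 0.124, -0.092 and 0.031 at day 4 and -0.024, 0.080 and -0.052 at day 8. It was 0.022, -0.027 and -0.288 at day 15 and -0.058, -0.101 and -0.295 at day 21. The spread of single members over the 12 arrays was ordinary: the median SD was 0.192 for members and 0.194 for all features.

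**Figure D1:**
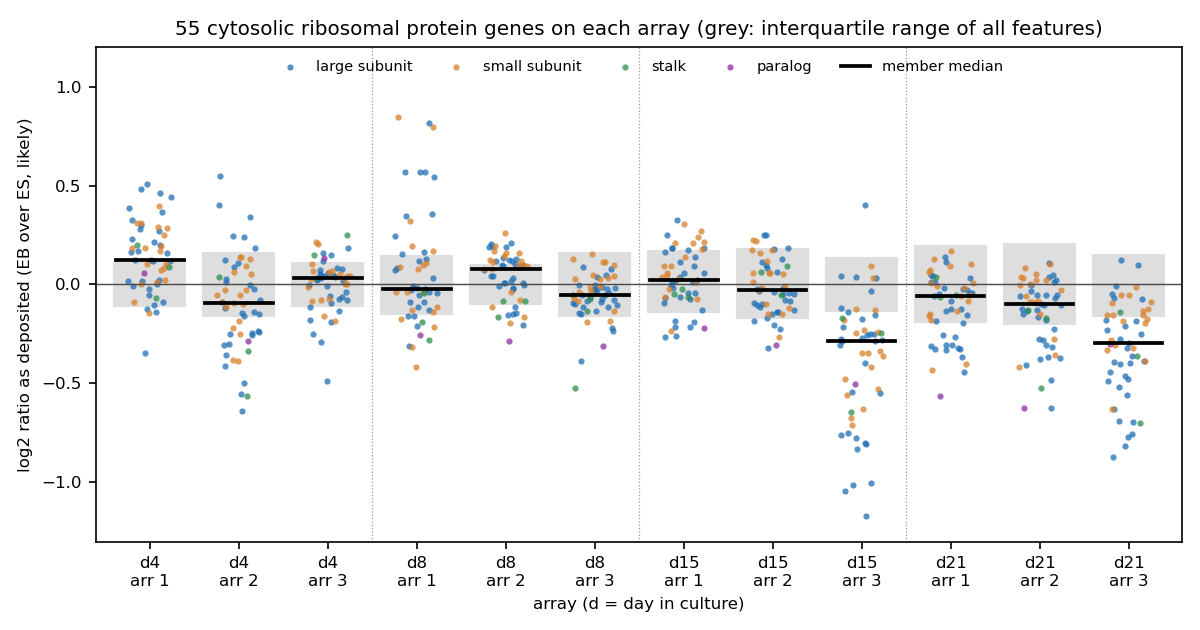
Log2 ratio of the 55 member genes (points, coloured by subunit) on each of the 12 arrays, with the member median as a bar and the interquartile range of all features in grey. Day 15 array 3 (median -0.288) and day 21 array 3 (-0.295) lie below the other 10 arrays, whose medians run from -0.101 to 0.124.

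Member medians by day were also read within each array set, often from 1 array. Set 2 has 1 array at days 4, 15 and 21 and 2 arrays at day 8. Set 1 has 1 array at day 8 and 2 arrays at the other days. In array set 2 the member median was 0.031 at day 4, 0.007 at day 8, -0.288 at day 15 and -0.295 at day 21. In array set 1 it was 0.028, -0.024, -0.001 and -0.089, with 45 of 55 members below 0 at day 21. The day 21 median was below 0 within both sets, whereas at day 15 it lay apart from 0 in set 2 alone, which holds a single day 15 array.

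At day 4 the members scattered around the ES level and none was called. With limma 0 of 55 members had an adjusted p under 0.05, as had 0.00% of all features, and 1 had an unadjusted p under 0.05, as had 10.1% of all features. That gene was Rpl34, with 0.44, 0.55 and 0.05 on arrays 1 to 3 (0.35 ± 0.26, SD, n = 3, adjusted p = 0.262). The next highest means were those of Rps15 (0.21 ± 0.11), Rpl31 (0.20 ± 0.26) and Rps6 (0.20 ± 0.18), the small-subunit protein that S6 kinases phosphorylate. The lowest were Rpl12 (-0.22 ± 0.31), Rplp2 (-0.20 ± 0.32), Rpl13 (-0.19 ± 0.45) and Rpl26 (-0.17 ± 0.12), all uncalled.

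At day 8 a few genes stood high on array 1 and most of the rest lay near 0. With limma 0 members were called, against 2.28% of all features, and 4 had an unadjusted p under 0.05, as had 19.2% of all features. Rps23, a protein of the decoding centre, was at 0.84, 0.26 and 0.13 on arrays 1 to 3 (0.41 ± 0.38, adjusted p = 0.160). Rpl27a was at 0.82, 0.21 and -0.003 (0.34 ± 0.43, adjusted p = 0.267), and Rps24 at 0.79, -0.08 and 0.16 (0.29 ± 0.45, adjusted p = 0.253). In each of these the first array was far above the others. In all 7 members exceeded 0.5 on day 8 array 1 (Rpl13a, Rpl27a, Rpl31, Rpl6, Rpl7, Rps23 and Rps24), or 12.73% of members and 2.58% of all features there, and none did on day 8 arrays 2 and 3. The same 7 were all above 0 on day 4 array 1, at 0.19 to 0.51. So were most members: 11 of 55 (20.0%) lay below 0 there, against 49.6% of all features. Rpl31 was the only one of the 7 above 0 on all of its day 8 and day 15 arrays, at 0.57, 0.21 and 0.08 at day 8 and 0.32, 0.18 and 0.04 at day 15 (adjusted p = 0.205 and 0.345).

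At day 21, 11 of 55 members were called lower than in ES cells and 0 higher. The share called was 20.0%, close to the 18.7% of all features called in either direction; of all features 9.93% were called lower and 8.78% higher, so the members' share was ordinary and their direction was not split. At an unadjusted p under 0.05, 18 members had values below 0 and 0 above, where 16.9% of all features were below 0 and 15.8% above, 32.7% together, which is also the members' share. Of the 11, 8 belonged to the 32 large-subunit genes, 2 to the 19 small-subunit genes, and 1 was Rpl7l1. No test of the large against the small subunit was made; their medians were -0.189 and -0.083. Effects were small: the called means ran from -0.32 to -0.52.

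Rpl7l1, a relative of the large-subunit protein Rpl7 that in human cells associates with maturing large subunits, had the smallest adjusted p. It was at -0.56, -0.63 and -0.30 on day 21 arrays 1 to 3 (-0.50 ± 0.17, SD, n = 3, adjusted p = 0.00376), an EB level of 0.709 of the ES level. Here array 3 was the highest of the day, unlike in most members. It had been below 0 on every array of the days between, at -0.25, -0.28 and -0.31 on day 8 (-0.28 ± 0.03, adjusted p = 0.129) and -0.22, -0.31 and -0.50 on day 15 (-0.34 ± 0.15, adjusted p = 0.0385). Its 2 probes were alike, with day 21 means of -0.54 and -0.45. Its parent Rpl7 was at -0.19, -0.15 and -0.77 on day 21 (-0.37 ± 0.35, adjusted p = 0.142), so a single low array carried much of its mean. The difference between Rpl7l1 and Rpl7 was not tested.

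Of the large-subunit genes, Rpl19 had the smallest adjusted p. It was at -0.30, -0.28 and -0.49 on day 21 (-0.36 ± 0.11, adjusted p = 0.00505), below all of its day 4 values (-0.02, -0.003 and -0.06). Rpl27 was at -0.31, -0.41 and -0.46 (-0.39 ± 0.08, adjusted p = 0.0073), with its arrays close together. Rpl26, which lies near the exit of the tunnel through which new proteins leave the ribosome, was at -0.26, -0.31 and -0.82 (-0.46 ± 0.31, adjusted p = 0.00827), so array 3 was far below the others. Its mean without array 3 was -0.28 (adjusted p = 0.0537), which ended the call.

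Rpl7a had the lowest mean of all members, at -0.31, -0.48 and -0.75 (-0.52 ± 0.22, adjusted p = 0.0376), or 0.7 of the ES level. Rpl6 was at -0.32, -0.37 and -0.69 (-0.46 ± 0.20, adjusted p = 0.0215). Rpl23a, a docking site for factors at the tunnel exit, was at -0.20, -0.38 and -0.39 (-0.32 ± 0.11, adjusted p = 0.0409). In all 3 genes every array was below 0 and array 3 was the lowest, though only narrowly in Rpl23a. Rpl12, which sits at the base of the stalk, was at -0.32, -0.32 and -0.56 (-0.40 ± 0.14, adjusted p = 0.0457). Rpl22, an RNA-binding protein that mice need for T cell development, was at -0.33, -0.22 and -0.63 (-0.40 ± 0.21, adjusted p = 0.0479). Both of these adjusted p-values lie just inside the threshold.

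Of the small-subunit genes, Rps2, which lines the path by which messages enter, was at -0.43, -0.42 and -0.63 (-0.49 ± 0.12, adjusted p = 0.0403). Rpsa, known also as the laminin receptor precursor, was at -0.40, -0.36 and -0.39 (-0.38 ± 0.02, adjusted p = 0.024), the narrowest spread of the called genes. On day 4 neither gene's arrays shared a sign.

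**Figure D2:**
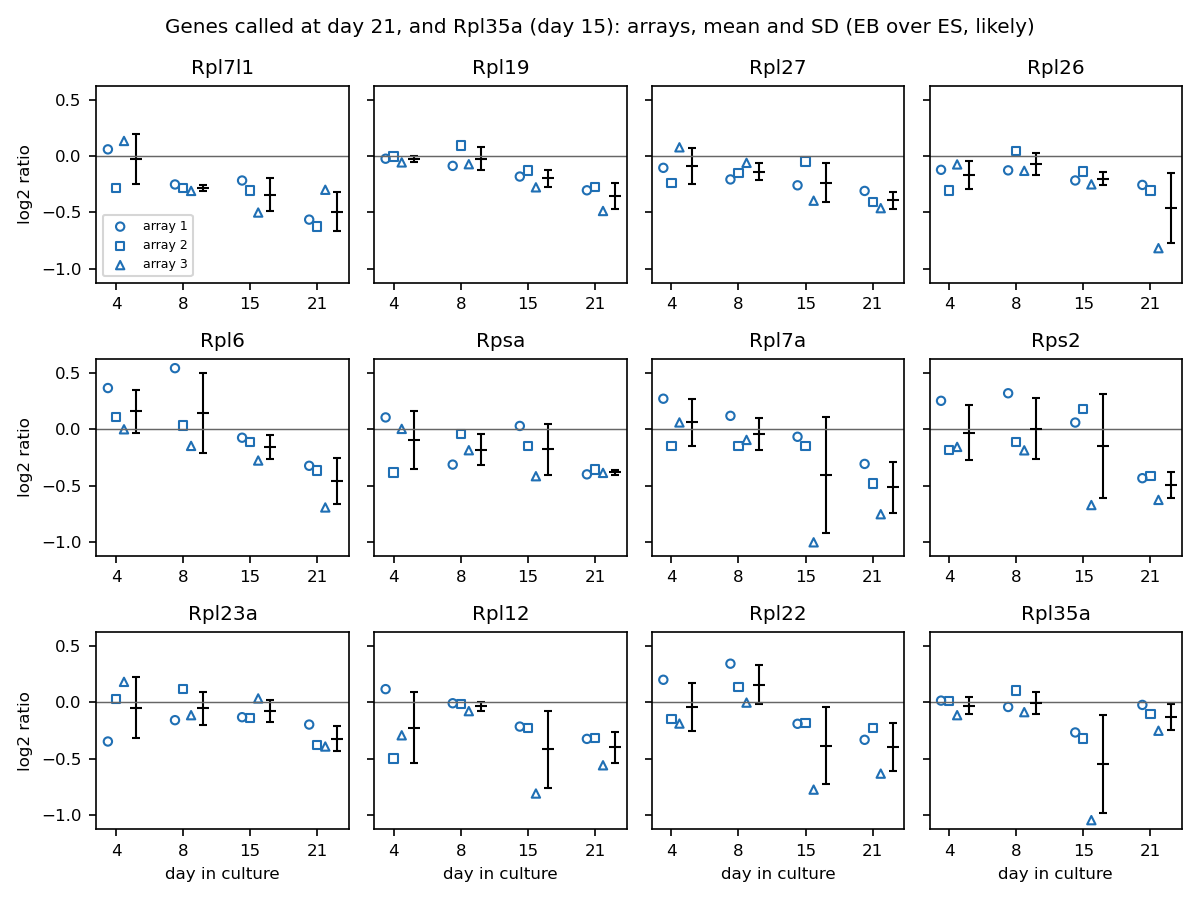
Log2 ratio (vertical axes) by day in culture (horizontal axes) for the 11 genes called at day 21 and for Rpl35a, called at day 15; open symbols are arrays 1 to 3, and the bar with whiskers is the mean ± SD. At day 21 every array of the 11 genes lies below 0, while arrays lie on both sides of 0 for 9 of them at day 4 and for 7 at day 8.

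The calls rested on few arrays. Without day 21 array 1, 4 members were called, where 7.04% of all features still were. Without day 21 array 2 it was 3 members and 8.16% of all features. Without day 21 array 3 it was also 3 members, where 16.9% of all features were called. Without day 8 array 2, which enters through the shared spread, 7 members and 16.1% of all features were called. Rpl7l1 and Rpl19 were the 2 of the 11 that stayed called without each of the 12 arrays. With quantile normalization 4 members and 9.99% of all features were called, and with scaling of the arrays to equal width 4 members and 9.08%. Within array set 1 alone 5 members were called, Rpl19, Rpl27, Rpl6, Rpl7l1 and Rps2, with 20.2% of all features.

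The uncalled members at day 21 ranged from -0.472 for Rpl13 (-0.37, -0.18 and -0.87 on arrays 1 to 3, adjusted p = 0.0991) to 0.064 for Rpl35 (-0.02, 0.11 and 0.10, adjusted p = 0.708). Rpl8, a protein beside the peptidyl transferase centre, was at -0.44, -0.37 and -0.52 (-0.44 ± 0.07, adjusted p = 0.0741), low on every array and yet uncalled, since its SE in the shared fit was 0.161. The 5 members with a mean above 0 were Rpl35, Rps16 (0.05 ± 0.06), Rps24 (0.05 ± 0.16), Rpl9 (0.03 ± 0.10) and Rpl11 (0.02 ± 0.11), none of them called.

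**Figure D3:**
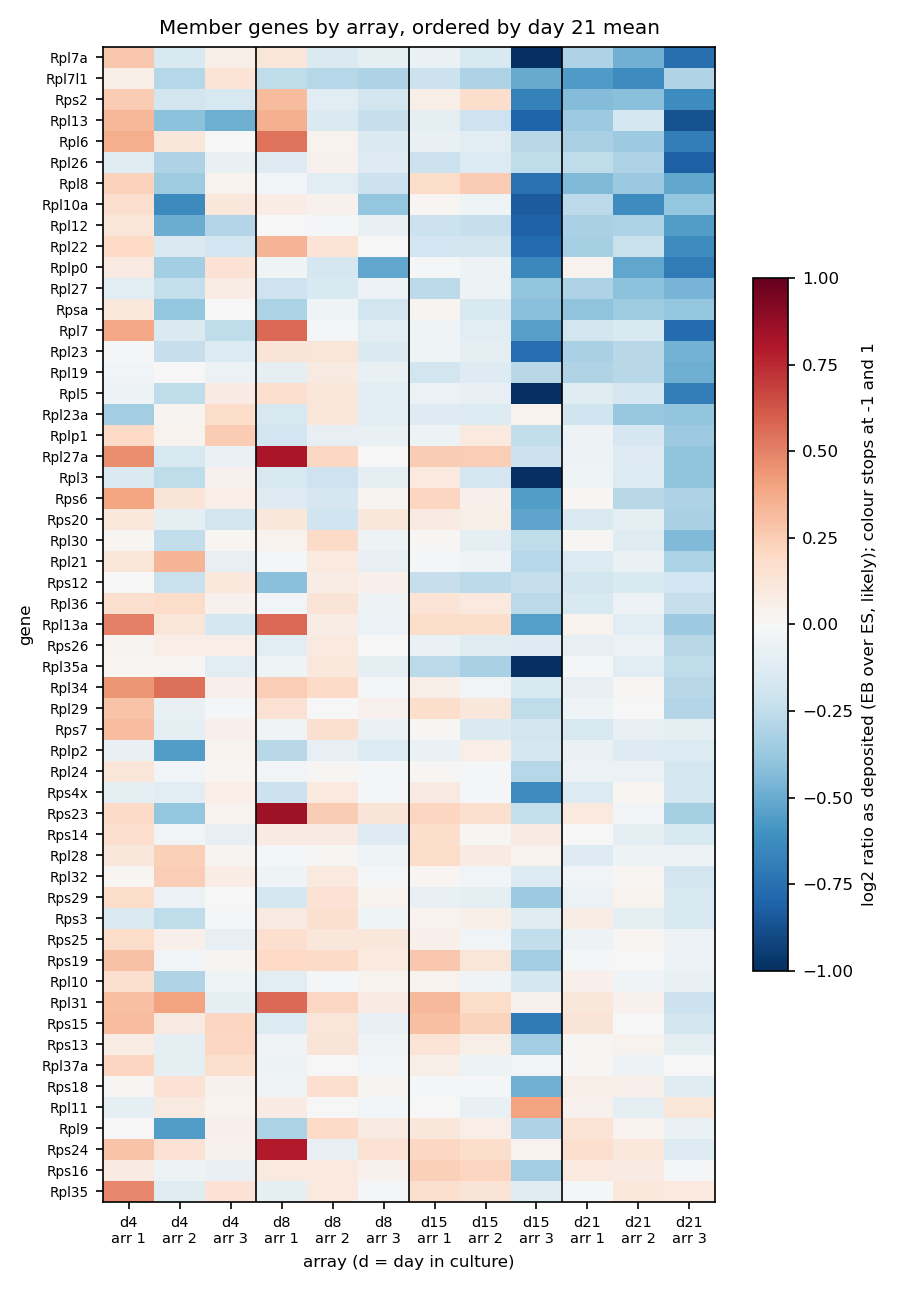
Log2 ratios of the 55 member genes (rows, ordered by day 21 mean) on the 12 arrays (columns, by day); blue is lower and red higher in EB under the likely direction. Day 15 array 3 and day 21 array 3 are blue in 49 and 53 of the 55 rows, with Rpl11 the clearest exception on day 15 array 3, and red cells gather on day 4 array 1 and day 8 array 1.

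At day 15, 2 of 55 members (3.6%) were called, both lower, where 10.6% of all features were called, 4.9% lower and 5.66% higher. At an unadjusted p under 0.05, 11 members had values below 0 and 0 above, where 12.7% of all features were below 0 and 13.8% above. Rpl35a, a large-subunit gene mutated in some human patients with Diamond-Blackfan anaemia, was at -0.27, -0.32 and -1.04 on arrays 1 to 3 (-0.54 ± 0.43, SD, n = 3, adjusted p = 0.0161). Without array 3 it was at -0.29 and still called (adjusted p = 0.0463), and it held without each of the other arrays as well, though not in a fit of day 15 alone. By day 21 it was at -0.02, -0.10 and -0.25 (-0.13 ± 0.12, adjusted p = 0.515). The other called gene was Rpl7l1, whose value without array 3 was -0.26 and uncalled (adjusted p = 0.150). Next lowest were Rpl5 (-0.44 ± 0.63, adjusted p = 0.145), Rpl12 (-0.42 ± 0.34, adjusted p = 0.0557) and Rpl7a (-0.41 ± 0.52, adjusted p = 0.116), with SDs near or above the size of the mean. The highest were Rpl31 (0.18 ± 0.14), Rps24 (0.14 ± 0.09), Rpl11 (0.11 ± 0.26) and Rpl28 (0.10 ± 0.08), all uncalled.

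That day 15 array 3 stood apart for these genes was known from an earlier look at the same data. The values here describe that difference and are no fresh test of it. Array 3 of day 15 lay below both other arrays for 50 of 55 members (90.9%), against 43.5% of all features. The median distance of array 3 from the mean of arrays 1 and 2 was -0.356 over the members and -0.018 over all features. On array 3, 19 members (34.55%) were below -0.5, as were 5.11% of all features; on arrays 1 and 2 no member was. Arrays 1 and 2 differed from each other by a median of 0.063 in size and by no more than 0.262 (Rpl3). Over these 2 arrays alone the member median was -0.001, with 28 members below 0 and 27 above. Day 21 array 3 showed the same lean at a smaller size: it lay below both others for 47 members (85.5%) against 38.5% of all features, with a median distance of -0.182 against -0.007. Markers also stood apart on day 15 array 3: the median of the 8 ES markers was -1.08 there, against -1.57 and -1.67 on arrays 1 and 2. The 7 endoderm markers had a median of 2.34, against 2.72 and 2.85, and the 8 mesenchyme markers one of 1.11, against 1.802 and 1.598. These are medians: on day 15 array 3, 7 of 8 ES markers and 7 of 8 mesenchyme markers were nearer to 0 than on both other arrays, but only 3 of 7 endoderm markers were, and the other 4 (Afp, Ttr, Apoa1 and Alb), like the ES marker Pou5f1, were further from 0. On day 21 array 3 the ES marker median was -1.66, against -2.10 and -1.97, the endoderm one 1.62, against 2.96 and 2.48, and the mesenchyme one 2.07, against 1.798 and 1.601. The part of cell makeup in their values was not tested.

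The distance on day 15 array 3 was far from even across members. Rpl5, which with Rpl11 carries the 5S RNA and can bind the p53 regulator Mdm2, was at -1.17 on array 3, against -0.06 and -0.08 on arrays 1 and 2. Rpl3, near the peptidyl transferase centre, was at -1.01 on array 3, against 0.09 and -0.17. Rps15 was at -0.71 on array 3, against 0.30 and 0.23, and Rpl8 at -0.75, against 0.18 and 0.25. These 4 had the largest distances, from -1.10 to -0.97, and in Rps15 and Rpl8 the sign itself turned.

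At the other end, Rpl11, the partner of Rpl5, was at 0.40 on array 3, against -0.001 and -0.08 on arrays 1 and 2. It was the highest member on that array and also on day 21 array 3 (0.12, against 0.04 and -0.10). Rpl23a (0.04, against -0.13 and -0.14), Rps12 (-0.23, against -0.23 and -0.27) and Rps14 (0.09, against 0.18 and 0.01) did not lie below both arrays either, and nor did Rpl37a (-0.03, against 0.06 and -0.05). Rps26 was barely below (-0.13, against -0.07 and -0.12). Of the genes with a printed start, Rpl35a and Rpl12 were at -1.04 and -0.81 on array 3, Rpl27a at -0.22 and Rpl28 at 0.03.

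**Figure D4:**
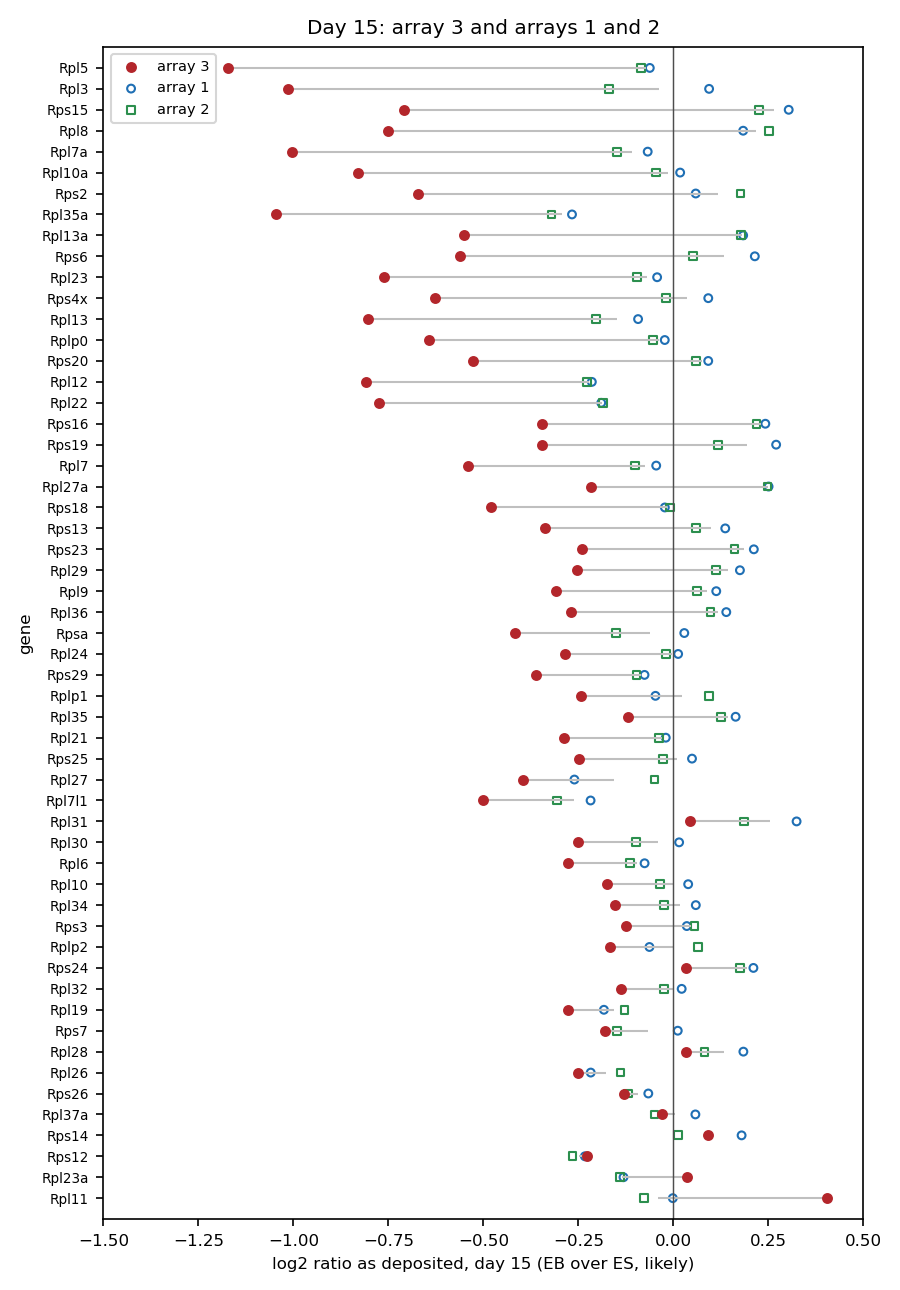
Day 15 log2 ratio of each member gene on array 3 (filled) and on arrays 1 and 2 (open), ordered by the distance of array 3 from the mean of the other arrays. Array 3 lies to the left of both for 50 of 55 genes, by up to 1.10 for Rpl5, and to the right by 0.44 for Rpl11.

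The stalk proteins recruit the elongation factors, and none of the 3 genes was called on any day. Rplp0 was at 0.04, -0.52 and -0.70 on day 21 arrays 1 to 3 (-0.40 ± 0.39, adjusted p = 0.105), a spread as large as the mean. Rplp1 was at -0.05, -0.17 and -0.36 (-0.19 ± 0.16, adjusted p = 0.134) and Rplp2 at -0.07, -0.13 and -0.14 (-0.11 ± 0.04, adjusted p = 0.481). On day 8 the 3 genes were below 0 on every array, with means of -0.24, -0.11 and -0.17 (adjusted p = 0.455, 0.519 and 0.412). Rpsa too was below 0 on all day 8 arrays (-0.18 ± 0.14, adjusted p = 0.383), among the lowest members of that day.

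Differences between days were tested in the same fit, and no member was called in any of the contrasts. For day 21 against day 4 limma called 0 of 55 members, against 5.84% of all features, and 9 members had an unadjusted p under 0.05, all lower at day 21, where 10.3% of all features were lower and 9.36% higher at that level. Rpl6 came nearest, at -0.32, -0.37 and -0.69 on day 21, against 0.37, 0.11 and -0.001 on day 4 (difference -0.62, SE 0.17, adjusted p = 0.0579). Rpl7l1 followed (difference -0.47, SE 0.13, adjusted p = 0.0646), then Rpl34 (-0.46, SE 0.14, adjusted p = 0.0823) and Rpl19 (-0.33, SE 0.10, adjusted p = 0.0831). The arrays of the 2 days did not overlap for 16 members, all lower at day 21, where 12.2% of all features did not overlap with day 21 lower and 12.6% with day 21 higher. With the array set as a term 2 members were called, Rpl6 (difference -0.62, adjusted p = 0.0105) and Rpl34 (-0.46, adjusted p = 0.025), with 6.94% of all features.

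For day 8 against day 4, day 15 against day 8 and day 21 against day 15, 0 members were called by limma, against 0.00%, 0.178% and 0.00936% of all features, and 2, 2 and 1 had an unadjusted p under 0.05, as had 6.98%, 9.22% and 6.31% of all features. The last was Rpl35a, which at -0.13 on day 21, against -0.54 on day 15, had its higher value at the later day. An F-test for change among the 4 days called 0 members in limma, against 2.9% of all features, and 6 had an unadjusted p under 0.05, as had 15.7% of all features, with Rpl6 first (adjusted p = 0.150).

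Some members hardly moved on any array. Rpl37a had the smallest SD over the 12 arrays (0.0907), between -0.09 and 0.21. Rpl24, whose loss of 1 copy causes the belly spot and tail phenotype in mice, ran from -0.28 to 0.12 (SD 0.102) and Rpl28 from -0.13 to 0.24 (SD 0.106). The widest were Rpl5 (SD 0.378, from -1.17 on day 15 array 3 to 0.16 on day 8 array 1) and Rpl13 (SD 0.374, from -0.87 on day 21 array 3 to 0.36 on day 8 array 1). Of the 55 members, 25 had their lowest value on day 15 array 3 and 19 on day 21 array 3, and 15 had their highest on day 4 array 1 and 12 on day 8 array 1. The same counts over all features were not made, so these cannot be called many or few. The X-linked gene Rpl10, the other member with 2 probes, had probe means of 0.04 and -0.08 at day 21.

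Other genes of the translation system were read beside the members. The ribosomal protein gene Fau, which the symbol rule does not reach, was at 0.65, 0.60 and -0.28 on day 15 arrays 1 to 3 (0.32 ± 0.52, adjusted p = 0.212), so array 3 was again the low one. It was at 0.27, 0.27 and 0.01 on day 21 (0.18 ± 0.15, adjusted p = 0.449). Among 20 measured genes of TOP messages and translation, 1 was higher and 5 lower at day 15 and 0 higher and 5 lower at day 21; of all features 5.66% were higher and 4.9% lower at day 15 and 8.78% higher and 9.93% lower at day 21. The list median by array was 0.001, -0.031 and -0.424 at day 15 and -0.085, -0.035 and -0.347 at day 21, with array 3 lowest on both days as in the members. The 5 lower at day 21 were Npm1 (-0.76 ± 0.13), a nucleolar chaperone of ribosome assembly, Eif4a2 (-0.72 ± 0.04), a helicase of translation initiation, Pabpc1 (-0.56 ± 0.12), which binds the poly(A) tail, Eef1d (-0.50 ± 0.13), which recharges elongation factor 1, and Eif2s3x (-0.41 ± 0.22), a subunit of initiation factor 2. Eef2, the translocation factor, was lower at day 15 (-0.38, -0.35 and -1.22, adjusted p = 0.0216) and at -0.33 ± 0.02 on day 21 (adjusted p = 0.164). The other 4 lower at day 15 were Eif2s3x, Eif4a2, Npm1 and Eef1d, each with its lowest value on array 3. Nap1l1, a histone chaperone, was the gene higher at day 15 (0.24 ± 0.07).

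The mitochondrial ribosome has its own set of proteins, also coded in the nucleus. Of 53 measured genes, 2 were higher and 8 lower at day 15 and 2 higher and 17 lower at day 21, when the median over the 53 was -0.234; the shares over all features are those given for the TOP list, 10.6% in either direction at day 15 and 18.7% at day 21. By array that median was -0.022, -0.058 and -0.134 at day 15 and -0.206, -0.185 and -0.279 at day 21, and array 3 was again the lowest of each day. Mrpl15 was the lowest (-0.91 ± 0.16, adjusted p = 9.65e-04), followed by Mrps31 (-0.75 ± 0.30, adjusted p = 0.00167) and Mrps5 (-0.66 ± 0.05, adjusted p = 6.83e-04), while Mrpl54 (0.42 ± 0.06, adjusted p = 0.00216) and Mrps6 (0.34, adjusted p = 0.0284) were higher. The other 14 called lower, Dap3, Mrpl2, Mrpl16, Mrpl36, Mrpl39, Mrpl40, Mrpl45, Mrpl49, Mrpl58, Mrps9, Mrps12, Mrps18b, Mrps22 and Mrps23, had means of -0.57 to -0.24. The difference between the cytosolic and the mitochondrial genes was not tested.

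Of 15 measured regulators of ribosome supply, 2 were lower at day 15, the transcription factor Gabpa (-0.45 ± 0.13) and the kinase Mtor (-0.27 ± 0.08). At day 21, 4 were lower: Gabpa (-0.40 ± 0.17), Polr1a (-0.44 ± 0.13), the largest subunit of the polymerase that makes ribosomal RNA, Rps6kb2 (-0.37 ± 0.03), an S6 kinase that the rule leaves out, and Eif4ebp1 (-0.34 ± 0.03), an mTOR target that restrains initiation. None was higher on either day. The median over the 15 was -0.009 at day 15 and 0.008 at day 21, so the list as a whole lay near 0. Of all features, 10.6% were called at day 15 and 18.7% at day 21.

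Ribosomal protein genes have many near-identical processed pseudogenes, and probe sequences were not used here, so signal from such copies cannot be told apart from that of the genes. Signal intensities were not used here either, so levels are not compared between members. The part of the array set in the day 15 values was not tested beyond the values within each set.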

How the data were processed

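The 12 two-channel arrays were used as deposited. Per the labels, the deposited values are log2 ratios (base by convention) already normalized by the authors. How they normalized, corrected background or filtered spots is not given in the sources used here. The labels' protocols give cDNA synthesis and in vitro transcription with dye-labelled UTP. The few arrays limit the precision. Probes were named through GEO's platform annotation, and all 57 member probes matched RefSeq by Entrez ID; probes of a gene were averaged, giving 10689 features.

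All features were fitted in R 4.3.3 with limma 3.58.1 (lmFit, eBayes), with 1 mean for each day over all 12 arrays (8 residual and 4.35 prior degrees of freedom). Days were tested against 0 and against each other, two-sided, with Benjamini-Hochberg adjustment over all features and a threshold of 0.05. The test against ES cells leaves out the spread of the ES control, and no dye swap was made. Errors after ± are SDs over 3 arrays. The fits were also run on simulated data with independent noise on every array. That run held no array sets, so it does not show how the p-values behave where arrays share a deviation.

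Members, lists and tests were chosen with earlier results of these data known. The plan named the extreme and called members of each day, the members most and least apart on day 15 array 3, the least variable, paralogs and the stalk; Rpl8 at day 21, the highest members of day 8 array 1, Rpl13 and Rpl5 as the most variable, Rpl10, and the members nearest to a call between days were added after their values were seen. Alternatives were leaving out each array, a replicate block, the array set as a term, other scalings, array weights, the days compared alone, single probes and features with a symbol only. Replicate numbers were not taken to pair arrays in the main fit. Of 18 correlations between deviations of same-numbered arrays, 8 were over 0.1, and they ran from -0.140 to 0.389. Yet 10 of 12 arrays correlated best with an array of their own number on another day. Replicate number and array set nearly coincide: array 1 of every day is in set 1 and array 3 of every day in set 2. Array 2 is in set 1 except at day 8. The replicate block and the array set term are therefore overlapping alternatives. What same-numbered arrays share beyond the array set was not tested. Plots were drawn with matplotlib 3.10.9.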

Additional observations from a re-analysis of the deposited data

Results flagged for a closer look

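In 7 cases among the 4 contrasts of days that were tested, all 3 arrays of a member lay on one side of 0 on one day and all 3 on the other side on the other day. The same count over all features was not made, so the 7 cannot be called many or few. None of these differences passed limma's test (adjusted p of 0.112 to 0.852), and they are small. For day 21 against day 4, Rplp1 differed by -0.358, Rpl36 by -0.275, Rpl28 by -0.204 and Rps26 by -0.191, each below 0 on all day 21 arrays and above 0 on all day 4 arrays. For day 8 against day 4, Rplp1 differed by -0.278. For day 21 against day 15, Rps14 differed by -0.178 and Rpl28 by -0.175. Outside these contrasts, Rps18 and Rps26 between days 15 and 4 and Rps19 between days 21 and 8 also had opposite signs on all arrays; those differences were not tested. Groups of 3 arrays are too small for the check for a single distant array, so day 15 array 3 is described in the results and not listed here.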

How the results depend on the processing

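Counts of members called moved with the setting; the share of all features called in the same fit follows each in parentheses. At day 8, where 0 were called, array weights gave 1 (9.35%) and a term for the array set 1 (4.25%). At day 15, where 2 were called, it was 4 with the replicate block (11.6%), 6 with an array set term (12%), 5 with array weights (30.4%), 1 with quantile normalization (7.26%), 1 in array set 1 (16.3%) and 0 in a fit of day 15 alone (2.42%). Leaving out single arrays gave 1 to 3, with 1 without day 8 array 2, any day 15 array or day 21 array 1. At day 21, where 11 were called, it was 14 with the replicate block (19.0%), 15 with an array set term (19.9%), 12 with array weights (24.5%), 4 with quantile normalization (9.99%), 4 with scaling (9.08%) and 5 in array set 1 (20.2%); leaving out single arrays gave 3 to 13. For day 21 against day 4, where 0 were called, it was 2 with the replicate block (5.74%), 2 with an array set term (6.94%), 5 with array weights (12.6%) and 2 in array set 1 (7.76%). It was 0 to 1 without single arrays, with 1 without day 4 array 2 or 3, day 8 array 1 or 3, day 15 array 3 or day 21 array 3. The F-test called 1 member with the replicate block (2.53%), 2 with array weights (13.2%) and 3 with an array set term (3.81%). The causes were not tested. The array set restriction was added after seeing the data.

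The member median was -0.288 at day 15 and -0.295 at day 21 in array set 2. The other alternatives moved the 4 day medians by less than the SD between arrays. At day 15 that SD was 0.167, and array 3 itself widens it. Leaving out day 15 array 3 moved the day 15 median from -0.105 to -0.001, so the day 15 median depended on that array. Of the 12 arrays, 10 correlated best with an array of their own number on another day. What same-numbered arrays share beyond the array set was not tested, and the replicate block gave the counts above. Of 260 repeats of the 13 calls, 186 passed, 74 did not, and no direction turned.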
